A study of Mus musculus with 3 samples.

Results

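The 3 arrays of the series held 10 immediate early genes: Fos, Fosb, Fosl2, Jun, Junb, Egr1, Ier2, Ier3, Atf3 and Zfp36. They were taken by gene symbol from the annotation of the array platform, and they are 10 of the 19505 distinct symbols found there. Each was measured by 1 of 22206 transcript clusters, as the array's sets of probes are called. The arrays held RNA from alveolar type 2 (AT2) cells, the epithelial cells that make surfactant and act as stem cells of the alveolus, sorted as EpCAM high and GFP high cells from mice in which GFP reports surfactant protein C (Sftpc). The mice were females of 9 to 11 weeks on a mixed CBA/Ca and C57BL6J background, and the air, continuous CS (cigarette smoke) and intermittent CS groups all carried the reporter. In this line GFP is also weakly expressed in some cells where the bronchioles meet the alveoli. The protocol ran for 5 weeks, and mice of both smoke groups breathed CS during 3 of them (5 days weekly, 60 minutes daily). Weeks with smoke followed one another in the continuous group and alternated with weeks of air in the intermittent group, and both groups ended with a week of smoke. Mice were sacrificed 24 hours after the last smoke, and age-matched controls breathed air. AT2 cells of 3 mice were pooled for each exposure, and 100 ng of RNA was hybridized to 1 array per exposure. There is therefore no replicate, no difference below carries an error or a p-value, and precision is limited by the single array per exposure.

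Immediate early genes are switched on within minutes of a stimulus from transcription factors that the cell already holds, and most of their mRNAs decay quickly. Many of their products are transcription factors that set off a later wave of genes. The Fos and Jun proteins pair to form AP-1, Egr1 is a zinc finger factor of the growth response, Atf3 is a factor of the stress response and Zfp36 encodes tristetraprolin, which marks cytokine mRNAs for decay. Growth factors, injury and inflammation induce these genes, and so does the enzymatic dissociation of a tissue into single cells. All 3 cell pools went through digestion with liberase and dispase for 10 minutes at 37 degrees C followed by flow sorting. With 1 pool per exposure, expression that the cells had in the lung and expression gained during dissociation cannot be told apart, nor can the exposure and the handling of its pool.

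The array values are log2 signals as deposited, with medians of 5.68 (air), 5.70 (continuous CS) and 5.66 (intermittent CS). Signal in the absence of expression was gauged from 1414 clusters for olfactory and vomeronasal receptors, genes of the nose. Their 95th percentile, called the receptor level here, was 5.19, 5.15 and 5.14 in the same order. Their differences between arrays gave a yardstick for the spread of dim clusters. Of these differences 99% lay within 1.85-fold for continuous CS against air, 1.76-fold for intermittent CS against air and 1.68-fold between the smoke arrays. The immediate early genes are brighter. Clusters at least as bright as Fosl2, the dimmest of these genes, numbered 5467. The standard deviation of their log2 differences was 0.41, 0.43 and 0.25 in that order of pairs. That of the receptor clusters was 0.25, 0.24 and 0.23. The yardstick may therefore understate the spread of bright clusters, mainly against air. Exact ties between the arrays of a pair made up 24.3% to 27.5% of all clusters. The label of the cells was checked against 14 AT2 markers, all above the receptor level on every array. Sftpc, Sftpb, Sftpa1 and Slc34a2 were at 19.93 on all arrays, the ceiling of the data, where a difference cannot be seen, and EpCAM (Epcam) was at 11.65, 11.46 and 11.87. These markers do not show that the sort was pure, as the club cell genes Cbr2 and Scgb1a1 were at 19.93 and 19.61 on all arrays.

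All 10 immediate early genes lay above the receptor level on all 3 arrays. Their values were generally highest with air and lowest with intermittent CS. The order air above continuous CS above intermittent CS was followed by 6 of them (Fos, Fosb, Jun, Egr1, Ier2 and Atf3), and by 9.75% of all clusters. That share includes tied clusters and dim ones, as 55.8% to 56.3% of clusters lay above the receptor level. It was not taken among bright clusters alone. Fosl2, Ier3 and Zfp36 were highest with continuous CS, and Junb held the same value with air and continuous CS. The plot of levels shows the genes ordered by the distance between their highest and lowest array.

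**Figure D1:**
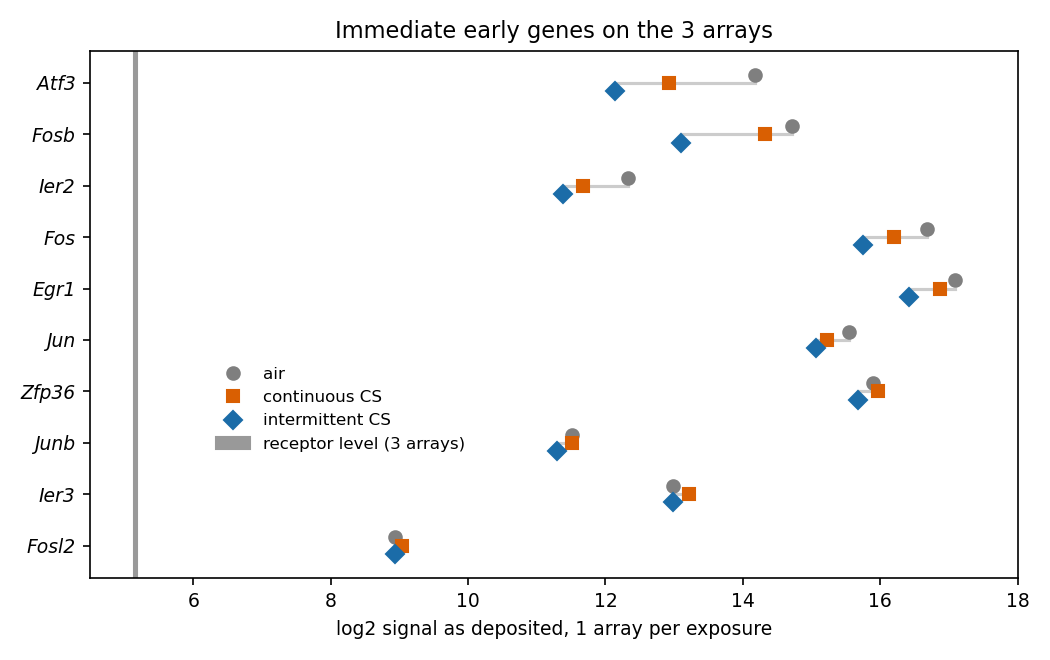
Log2 signal (x axis) of the 10 immediate early genes (rows, ordered by range) on the air, continuous CS and intermittent CS arrays, 1 point per array, with the receptor level on the 3 arrays as a vertical grey band. Atf3 spans 2.05 and Fosb 1.61 on the log2 scale from air down to intermittent CS, whereas Fosl2, Ier3 and Junb span 0.11, 0.22 and 0.22.

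Atf3, a basic leucine zipper protein that is induced by stress and can repress inflammatory genes, differed most. Its log2 level was 14.18 with air, 12.93 after continuous CS and 12.13 after intermittent CS. The air array was the highest and the intermittent CS array the lowest. Its signal was 2.38-fold lower with continuous CS and 4.14-fold lower with intermittent CS than with air, and the smoke arrays were 1.74-fold apart. All 3 differences exceeded those of 99% of the receptor clusters.

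Fosb encodes a Fos family protein with a long and a short splice form, which the single cluster does not separate. Its level was 14.71 with air, 14.32 after continuous CS and 13.10 after intermittent CS. Here the intermittent CS array stood apart, 3.05-fold lower than air and 2.33-fold lower than continuous CS, while continuous CS was 1.31-fold lower than air. Fosb was the 1 member at least 2-fold apart between the smoke arrays.

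Fos, the founding partner of Jun in AP-1, was at 16.68 with air, 16.20 after continuous CS and 15.75 after intermittent CS. The levels stepped down by nearly the same amount each time, 1.40-fold from air to continuous CS and 1.37-fold from continuous to intermittent CS. The difference of 1.91-fold between air and intermittent CS was just under 2-fold. Fosl2 encodes Fra-2, a Fos family protein that lacks the strong activation domain of Fos. It was at 8.93 with air and with intermittent CS and at 9.04 with continuous CS, the smallest range of the 10 genes.

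Jun, which binds AP-1 sites with Fos or as a homodimer, was at 15.55 with air, 15.22 after continuous CS and 15.06 after intermittent CS. The order was that of Fos with smaller steps, 1.26-fold lower with continuous CS and 1.41-fold lower with intermittent CS than with air. Junb, a weaker activator that can oppose Jun, was at 11.51 on the air and continuous CS arrays, against 11.29 with intermittent CS. Its only difference was 1.17-fold.

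Egr1, a zinc finger factor that binds GC-rich sites in growth and repair genes, was at 17.09 with air, 16.87 after continuous CS and 16.42 after intermittent CS. The intermittent CS array was the lowest, 1.59-fold below air and 1.37-fold below continuous CS, and continuous CS was 1.16-fold below air. These 3 differences lay within the range of 99% of the receptor clusters.

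Ier2, a small nuclear protein of the early growth factor response, was at 12.33 with air, 11.67 after continuous CS and 11.38 after intermittent CS. Both smoke arrays lay below air, by 1.58-fold and 1.93-fold, and were 1.22-fold apart. Ier3, an NF-kappaB and p53 target that acts on cell survival, was at 12.99 with air and with intermittent CS and at 13.21 with continuous CS. It was the member furthest above air with continuous CS, by 1.17-fold.

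Zfp36 was at 15.89 with air, 15.96 after continuous CS and 15.68 after intermittent CS. The air and continuous CS arrays were 1.05-fold apart, and intermittent CS was 1.16-fold below air and 1.21-fold below continuous CS. These differences lay within the range of 99% of the receptor clusters, so the 3 levels of Zfp36 could not be told apart by that yardstick.

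**Figure D2:**
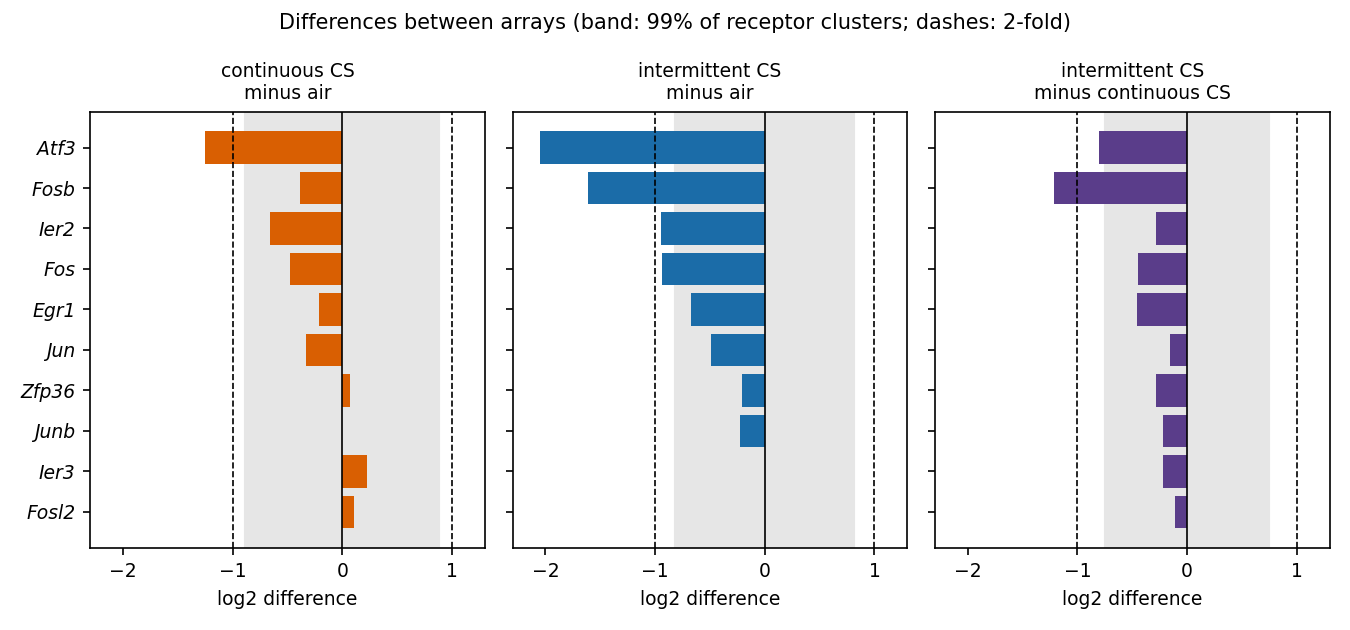
Log2 difference (x axis) of the 10 genes (rows) for the 3 pairs of arrays, with dashed lines at 2-fold and a grey band holding 99% of the receptor clusters. In the pair of intermittent CS and air, Atf3, Fosb, Fos and Ier2 reach below the band, and between the smoke arrays all 10 bars point to lower values with intermittent CS.

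Compared to air, the 10 genes had a median log2 difference of -0.27 with continuous CS and -0.58 with intermittent CS, and both comparisons use the same air array. Over all clusters, dim and tied ones included here and in the shares of lower clusters, each median was 0.00. With continuous CS, 6 of the 10 were lower, 3 were higher and 1 was equal, whereas 38.1% of all clusters were lower. Atf3 was at least 2-fold lower, as were 0.473% of all clusters and 0.933% of the 5467 clusters whose mean reached that of the dimmest member, Fosl2. None of the 10 was at least 2-fold higher, as 1.13% of all clusters were. With intermittent CS, 8 were lower, none was higher and 2 were equal, whereas 38.7% of all clusters were lower. Atf3 and Fosb were at least 2-fold lower (0.716% of all clusters and 1.26% of those at least as bright as Fosl2), and none was 2-fold higher (0.833% of all clusters). Fos and Ier2 lay just short of the threshold, at log2 differences of -0.93 and -0.95, and also exceeded 99% of the receptor clusters. Receptor clusters, however, spread less in this pair than clusters at least as bright as Fosl2.

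When intermittent CS was compared to continuous CS, all 10 genes were lower, with log2 differences from -1.22 for Fosb to -0.11 for Fosl2 and a median of -0.28. Of all clusters 36.4% were lower and the median was 0.00. Fosb alone was at least 2-fold lower, as were 0.635% of all clusters and 0.805% of those at least as bright as Fosl2, and none of the 10 was 2-fold higher (0.117% of all clusters). Only Fosb and Atf3 exceeded 99% of the receptor clusters in this pair. The other 8 genes were lower by 1.08-fold to 1.37-fold, a size that receptor clusters without signal also showed.

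To show the control regions of genes that were lower on both smoke arrays, the 250 bases upstream of the RefSeq transcription start (build GRCm38.p6, 8 of the 10 genes matched) were searched on both strands. The core of the cAMP response element, at which CREB and ATF proteins bind, is written TGACG and was found in Fos, Fosb, Junb and Atf3, 4 of the 8 promoters, and in 17.8% of 32851 promoter windows of the same length. Capitals mark it in the promoters of the 3 printed genes of this group, which were lower on both smoke arrays than with air. In Atf3 (chr1:191183334-191183583, minus strand) it lies on the strand opposite to the gene and so reads in reverse complement, 7 to 3 bases before the start. In Fosb (chr7:19310046-19310295, minus strand) it begins 60 bases before the start, and in Fos (chr12:85473640-85473889, plus strand) 129 and 66 bases before it.
Atf3: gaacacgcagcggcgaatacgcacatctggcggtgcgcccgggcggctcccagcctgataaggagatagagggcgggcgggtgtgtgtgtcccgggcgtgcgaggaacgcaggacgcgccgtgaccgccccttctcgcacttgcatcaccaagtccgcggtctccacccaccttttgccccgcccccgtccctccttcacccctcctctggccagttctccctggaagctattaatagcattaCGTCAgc
Fosb: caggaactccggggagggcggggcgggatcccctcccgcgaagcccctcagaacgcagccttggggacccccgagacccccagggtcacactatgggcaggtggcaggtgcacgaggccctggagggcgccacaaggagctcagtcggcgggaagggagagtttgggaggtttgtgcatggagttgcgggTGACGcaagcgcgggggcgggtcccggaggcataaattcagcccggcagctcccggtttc
Fos: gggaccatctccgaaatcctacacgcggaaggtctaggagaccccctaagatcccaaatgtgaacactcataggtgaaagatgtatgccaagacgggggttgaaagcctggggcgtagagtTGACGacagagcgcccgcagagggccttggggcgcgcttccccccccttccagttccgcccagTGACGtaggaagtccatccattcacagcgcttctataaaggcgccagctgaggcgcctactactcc

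Junb, the other gene with the core, differed by at most 1.17-fold. Jun, which was also lower than air on both smoke arrays, had a window without the core. The full element TGACGTCA, which contains the core, was in none of the 8 windows and in 1.55% of all. The AP-1 site TGANTCA (6.75% of all windows) and the E-box CACGTG that clock factors bind (6.02%) were in none of the 8. The GC box GGGCGG was in 7 of the 8, all but Junb, and in 32.7% of all windows, the TATA box TATAAA was in Fos alone (12.4% of all windows), and the ETS site CCGGAA in Zfp36 alone (12.0%). Of the 8 windows, that of Zfp36 alone also held a CArG box, the site of serum response factor. This box was found in 1.47% of all windows. Egr1 and Ier2 had no matched window and were not searched for any motif. Bases further upstream were not searched in any gene, so the search cannot show that the other genes lack a CArG box. Any part of these motifs in the levels of the genes was not tested. The Zfp36 promoter is printed beside the former ones as that of a gene that stayed within 1.21-fold on the 3 arrays. Its CArG box is in capitals, 58 to 49 bases before the start (chr7:28379229-28379478, minus strand).
Zfp36: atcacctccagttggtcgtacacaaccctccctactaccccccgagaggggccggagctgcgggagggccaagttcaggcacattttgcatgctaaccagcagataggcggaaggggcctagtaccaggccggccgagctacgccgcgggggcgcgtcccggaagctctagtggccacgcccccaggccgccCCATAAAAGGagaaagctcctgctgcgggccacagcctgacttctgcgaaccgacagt

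A list of 56 further genes that respond to stimuli as immediate early genes or close to them had 53 measured. Between the smoke arrays 34 of the 53 were lower with intermittent CS, 10 higher and 9 equal, with a median log2 difference of -0.07 and none 2-fold apart. Against air the medians were 0.01 with continuous CS and 0.00 with intermittent CS, so these genes did not share the median of the 10. The order air above continuous CS above intermittent CS was seen in 14 of the 53. Among these, Nr4a1, an orphan nuclear receptor, was at 14.03, 13.78 and 13.20. Pim1, a survival kinase, was at 13.82, 12.74 and 12.30, 2.11-fold and 2.86-fold below air. Its smoke arrays were 1.36-fold apart. Nr4a3, a relative of Nr4a1, was 2.25-fold below air with intermittent CS.

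Other genes of this list went the other way. The clock gene Per1, which glucocorticoids also induce, was 5.72-fold higher with continuous CS and 5.16-fold higher with intermittent CS than with air. Tnfaip3, an inhibitor of NF-kappaB signaling, was 2.42-fold higher with continuous CS, and its log2 difference was 0.85 with intermittent CS. Cebpd and Errfi1, an inhibitor of the EGF receptor, were 2.35-fold and 2.57-fold higher with intermittent CS. The largest differences between the smoke arrays were those of Egr2 at -0.68, Nr4a1 at -0.57 and Csrnp1 at -0.53 on the log2 scale, all under 2-fold.

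Of 18 measured AP-1 and ATF family genes outside the 10, none was 2-fold apart in any pair, and the median log2 differences were -0.07 (continuous CS minus air), 0.00 (intermittent CS minus air) and 0.00 (intermittent minus continuous CS). Jund, the Jun family gene that most cells express without a stimulus, was at 14.21, 14.18 and 13.90. Atf4, the factor upstream of Atf3 in the stress response to amino acid shortage and misfolded protein, was at 12.35 with air and at 12.17 on both smoke arrays. Batf, which pairs with Jun proteins, was 1.69-fold below air on both smoke arrays. Creb1, which binds cAMP response elements, was at 9.83 with air, 9.15 after continuous CS and 9.98 after intermittent CS. Its smoke arrays were 1.78-fold apart, beyond 99% of the receptor clusters and opposite in direction to the 10 genes. Atf6, a sensor of misfolded protein, was at 12.29, 11.76 and 12.24, and the Fos family gene Fosl1 was at 6.45, 6.32 and 6.75. The 17 measured genes of signaling to immediate early promoters, among them Srf, Elk1 and the MAP kinases, had medians of -0.07, 0.00 and 0.00, with none 2-fold apart. Elk3, an ETS partner of serum response factor, was 1.79-fold higher with intermittent CS than with air and 1.56-fold higher than with continuous CS. Its relative Elk4 and the EGF receptor gene Egfr were 1.27-fold and 1.23-fold below air with continuous CS. Mrtfa, a coactivator of serum response factor, and Mapk8ip3, a scaffold of JNK, were 1.36-fold and 1.27-fold below air with intermittent CS, and Mapk9, which encodes a JNK, was 1.37-fold lower than with continuous CS.

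Feedback genes were mixed as well. Of 22 measured repressors and phosphatases, none was 2-fold apart with continuous CS or between the smoke arrays, and Dusp10, a phosphatase of JNK and p38, was 2.10-fold below air with intermittent CS. The medians were 0.04, -0.05 and -0.03 in the same order of pairs. Dusp1, which switches off MAP kinases and is itself induced with Fos, was at 18.61, 18.36 and 18.06, the order of the 6 genes above. The transcription factor gene Ets2 was 1.66-fold and 1.94-fold above air. Spry1, an inhibitor of receptor tyrosine kinase signaling, was at 13.24, 12.48 and 13.01, while its relative Spry2 was at 11.40, 11.81 and 12.00. Klf10 was 1.51-fold below air with continuous CS, the phosphatase gene Dusp5 was 1.38-fold lower between the smoke arrays, and Nab2, which represses Egr1 activity, was at 7.98, 8.14 and 8.28.

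Of 18 transcripts listed as targets of tristetraprolin in macrophages and fibroblasts, 4 were at least 2-fold lower and 1 at least 2-fold higher with intermittent than with continuous CS, with a median of -0.11. The 3 with the largest differences were the cytokine gene Il1b (3.77-fold lower) and the chemokine genes Ccl3 (3.75-fold) and Cxcl2 (2.58-fold). The 1 that was higher was the cytokine gene Il6, by 2.06-fold. In the same pair Zfp36 was 1.21-fold lower, and 12 of 13 neutrophil markers were lower too. The 18 include Ier3, itself among the immediate early genes. Any part of Zfp36 or of other cell types in these differences was not tested. Against air, 3 were at least 2-fold higher (Cxcl2, Ccl3 and Plaur, by 3.24-fold, 3.23-fold and 3.12-fold) and 1 at least 2-fold lower with continuous CS, with a median of 0.07. With intermittent CS the chemokine gene Cxcl1 and the growth factor gene Csf2 were 2.28-fold and 2.27-fold higher and Il1b 2.08-fold lower, with a median of 0.00.

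Heat shock genes, which dissociation raises together with Fos and Jun in other tissues, mostly lay below air on the smoke arrays, as most of the 10 genes did, but between the smoke arrays most were higher with intermittent CS. Against air 8 of 11 measured were lower and 3 higher in each comparison, with medians of -0.10 after continuous CS and -0.06 after intermittent CS. Between the smoke arrays 8 had the higher value with intermittent CS and 3 with continuous CS, none by 2-fold, with a median of 0.05. Hspa1a and Hspa1b, near-identical copies of the inducible heat shock protein that the array may not separate, were 1.58-fold and 1.71-fold higher. Hspa1b was at 8.50, 8.86 and 9.64, the reverse of the order of Fos. Bag3, a cochaperone, at 9.85, 9.05 and 8.77, and the small heat shock gene Hspb1, at 9.11, 8.60 and 8.59, followed the order of Fos. The cochaperone gene Dnajb4 was 1.26-fold higher with intermittent than with continuous CS. The chaperone gene Hsph1 was 2.32-fold lower with continuous CS, Bag3 was 2.11-fold lower with intermittent CS, and Hspa1b was 2.19-fold higher with intermittent CS.

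Among 17 measured genes of the integrated stress response, the pathway from Atf4 to Atf3, no gene was 2-fold apart with continuous CS or between the smoke arrays, and Sesn2 was 2.25-fold higher with intermittent CS than with air. The medians were -0.03, -0.15 and 0.00. Ddit3, a target of Atf4 as Atf3 is, was at 8.18 with air and 8.02 on both smoke arrays, and Nupr1 was at 15.16, 14.39 and 14.25. Atf5 was 1.38-fold below air with continuous CS, and Ppp1r15a, a feedback phosphatase subunit, was 1.67-fold below it with intermittent CS. Phgdh, of serine synthesis, and the lipoprotein receptor gene Vldlr were 1.32-fold and 1.31-fold higher with intermittent than with continuous CS.

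**Figure D3:**
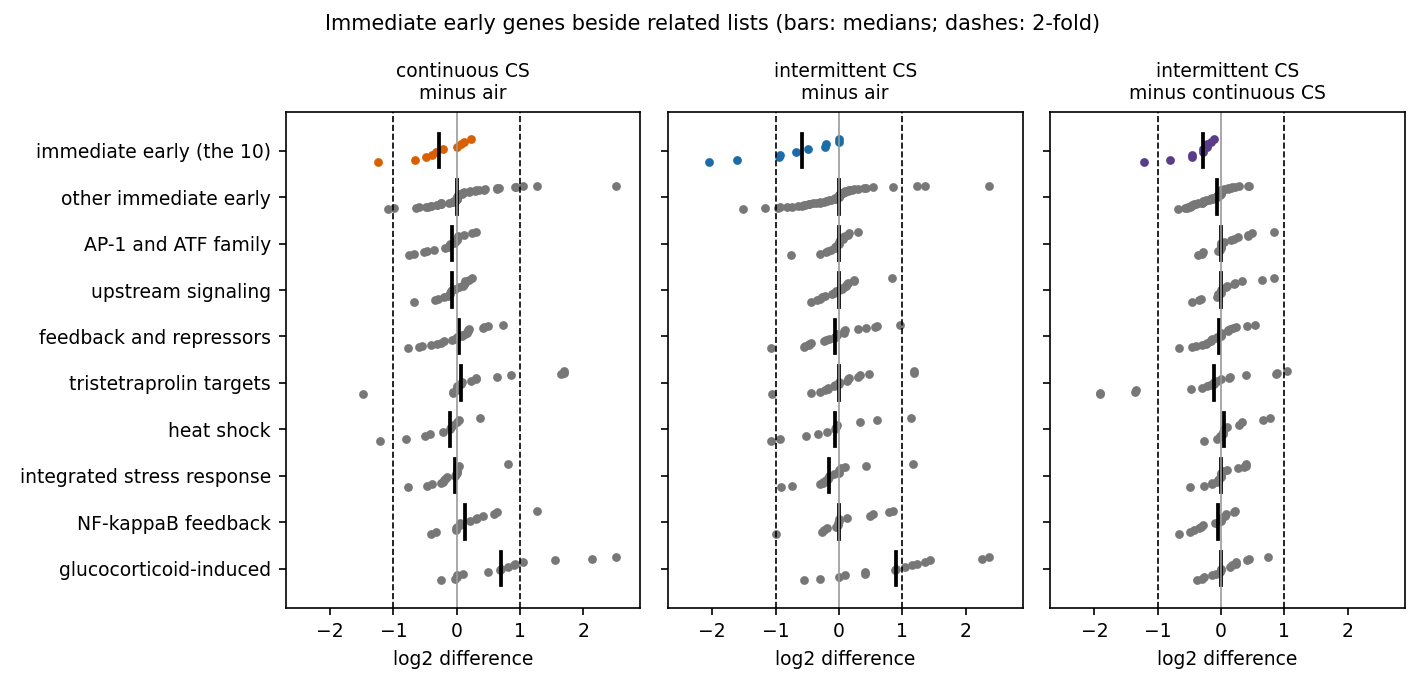
Log2 difference (x axis) of each measured gene of the 10 immediate early genes (colored, top row) and of 9 related lists (grey) for the 3 pairs of arrays, with a black bar at each median and dashed lines at 2-fold. The 10 genes have medians of -0.27, -0.58 and -0.28, while the medians of the glucocorticoid-induced genes are 0.69, 0.91 and 0.00.

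The genes whose profile over the 3 arrays came nearest to the median profile of the 10 were Tank, Flvcr2, Zcchc7, Gimap4 and Gxylt1, at distances from 0.036 to 0.045 on the log2 scale among 6419 candidates. Tank, an adaptor of TRAF signaling, was at 12.37, 12.16 and 11.80. With 3 arrays such likeness is a description only.

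Clock genes differed between air and both smoke arrays. Dbp, a clock output gene, was at 9.67 with air and at 18.02 and 17.93 with continuous and intermittent CS, and Arntl, the clock activator, was at 12.03, 7.01 and 6.56. The clock repressor Nr1d1 was at 8.47, 14.43 and 14.28, and Npas2, a partner of Arntl, differed from air by -5.67 and -5.60 on the log2 scale. Ciart and Clock differed between the smoke arrays by -0.65 and 0.59 on the log2 scale. Of 17 measured clock genes 13 were at least 2-fold apart between continuous CS and air and 12 between intermittent CS and air. Between the smoke arrays none was 2-fold apart, and 12 of the 17 were lower by any amount with intermittent CS. Of the immediate early genes all 10 were lower by any amount in that pair, and Fosb alone by at least 2-fold. Of 15 glucocorticoid-induced genes, 4 exceeded air by 2-fold or more with continuous CS and 7 with intermittent CS, and none was lower by that much, while 2 were lower by less in each comparison. The sources used here do not give the hour of sacrifice. The part of the clock and of glucocorticoids in the levels of the 10 genes was not tested.

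Markers of other cell types also differed between the arrays, and fewer cells of a type and less RNA per cell cannot be told apart in pooled cells. Of 14 endothelial markers 13 were above air on the continuous CS array, 7 of them by at least 2-fold, and their summed linear signal was 207% of air after continuous CS and 94.9% after intermittent CS. The summed signal of the 10 immediate early genes, set mainly by Egr1, Fos and other bright members, was 82.2% and 61.7% of air. From air to continuous CS the endothelial sum was higher and the immediate early sum lower. Between the smoke arrays both were lower with intermittent CS (13 of 14 endothelial markers, 7 by at least 2-fold). A linear sum is set by the brightest genes of a list, here Calcrl and Cdh5, so counts and medians of log2 differences are given beside the sums. With intermittent CS 6 endothelial markers were above air and 7 below it (median -0.01). Fibroblast and smooth muscle markers summed to 158% and 69.2% of air, set mainly by Vim, which other cells express too. With continuous CS 9 of 12 were above air and 1 below it (median 0.65), and with intermittent CS 5 were above it and 4 below it (median 0.00). Among those above the receptor level on either array of a pair these medians were 0.73 and 0.30, and -0.42 between the smoke arrays. Dcn, of fibroblasts, was 3.87-fold and 1.90-fold above air. Between the smoke arrays 8 were lower with intermittent CS and none was higher (median -0.26). Of the 12, 3 (Lum, Tagln and Myh11) lay at or below the receptor level on all arrays.

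Leukocytes carry immediate early mRNAs too. Of 12 pan-leukocyte markers 9 were above air on the continuous CS array, and all 12 were lower with intermittent than with continuous CS, with medians of 0.18 and -0.62 on the log2 scale. Against air 9 of the 12 were lower with intermittent CS and 1 was higher (median -0.60). They summed to 120% of air after continuous CS and 100.2% after intermittent CS, a sum set by Lcp1, the 1 marker above air with intermittent CS. Was lay at or below the receptor level on all arrays. The leukocyte gene Ptprc (CD45) was at 10.92, 10.41 and 10.20. Neutrophil markers summed to 140% and 57.9% of air, with 11 of 13 above air with continuous CS, 11 below air with intermittent CS and 12 lower with intermittent than with continuous CS (medians 0.24, -0.59 and -0.98). Of the 13, Mmp9, Ngp and Camp lay at or below the receptor level on all arrays. Above that level on either array of a pair were 10, 9 and 10 of them, in the order of those medians. Alveolar macrophage markers, with sums set mainly by Chil3 and Plet1, stood at 127% and 100.9% of air and at medians of 0.18, 0.00 and -0.07, with the defining marker Marco at or below the receptor level. Markers of T, NK and B cells summed to 103% and 71.3%, with medians of -0.02, -0.01 and 0.07 and Nkg7, Klrd1 and Ms4a1 at or below that level. Among those above that level on either array of a pair the medians were -0.04, -0.84 and -0.75.

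The AT2 sum, 98.96% of air after continuous CS and 101% after intermittent CS, was nearly fixed by markers at or close to the ceiling and is no measure of stability. Of the 14 AT2 markers 5 were below air and 2 above it with continuous CS, 1 was below and 6 were above with intermittent CS, and between the smoke arrays 9 had the higher value with intermittent CS. Hc, a complement gene, was 2.19-fold and 1.85-fold below air. AT1 markers, of the flat gas exchange cells, summed to 119% and 109% of air, set mainly by Ager. Of 9 AT1 markers 8 were above air with continuous CS (median 0.61), 6 with intermittent CS (median 0.02), and 8 were lower with intermittent than with continuous CS (median -0.61), the direction of the 10 genes. Club cell markers summed to 107% and 106%, with Cbr2 at the ceiling, Scgb1a1 equal on all arrays and Bpifa1 at or below the receptor level. Of 9 club cell markers 6 were above air with continuous CS and none below it (median 0.42), among them Scgb3a2 and Cyp2f2 at 3.07-fold and 2.15-fold, and 5 were lower and 1 was higher with intermittent than with continuous CS (median -0.40). Ciliated cell markers summed to 81.5% and 71.1%, set mainly by Tubb4b and Tppp3, with medians of 0.05, 0.00 and -0.05 and 3 of 7 (Ccdc113, Tekt1 and Rsph1) at or below the receptor level. Their medians among markers above that level on either array of a pair were -0.03, -0.24 and -0.21. The part of other cell types in the differences of the immediate early genes was not tested for any pair of arrays.

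**Figure D4:**
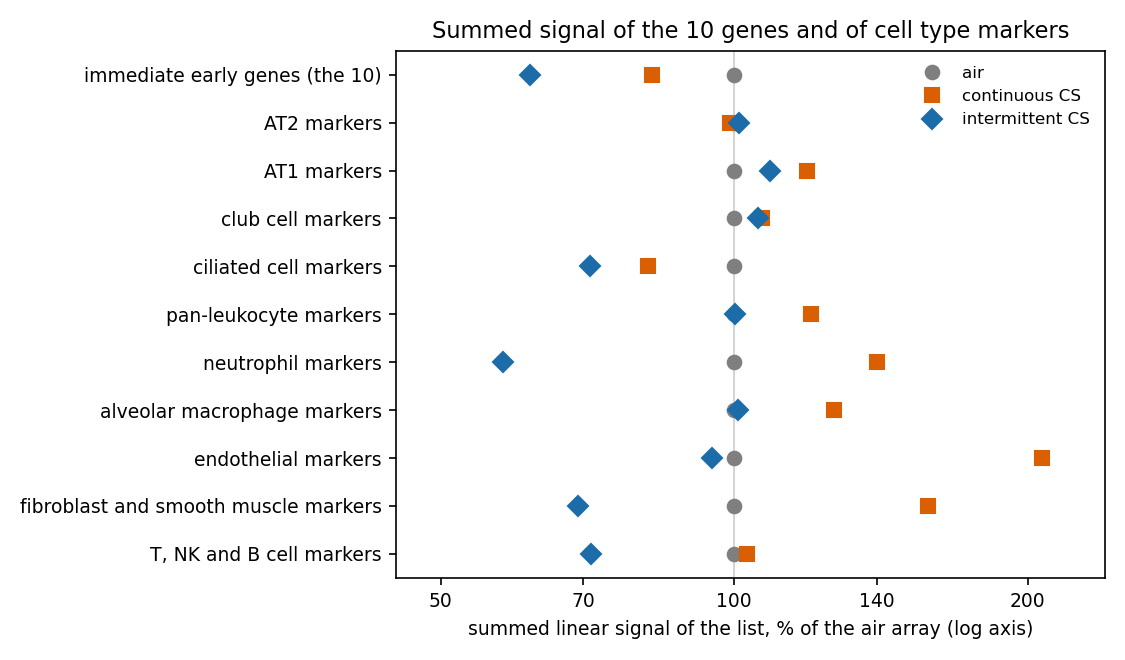
Summed linear signal (x axis, log scale, as a percentage of the air array) of the 10 immediate early genes and of 10 lists of cell type markers (rows) on each array. The immediate early genes stand at 82.2% with continuous CS and 61.7% with intermittent CS, whereas the endothelial markers stand at 207% and 94.9%, and the AT2 and club cell sums are nearly fixed by genes at or close to the ceiling.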

How the data were processed

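AT2 cells sorted from whole lung cells were pooled per exposure and hybridized to GeneChip Clariom S arrays, 1 each for air, continuous CS and intermittent CS. The authors used the Transcriptome Analysis Console, and the deposited table holds 1 log2 value for each transcript cluster on each array. Its version, summarization, background correction, normalization and genome build: not given in the sources used here. Arrays have no count depth. The members and lists were chosen with earlier results of these data known.

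Values were used as deposited. The platform annotation gave 19572 of 22206 clusters 1 symbol, none several and 2634 none, and the symbols of the 10 genes were unchanged in RefSeq (GRCm38.p6). Where a gene had several clusters, that with the highest mean was taken. Differences were taken per pair of arrays, differences of 2-fold or more were counted, following the study's methods, and no test was made. Related genes named are the 3 with the largest absolute difference per list and pair among genes above the receptor level. Genes nearest in profile are the 5 closest by Euclidean distance of centred values, leaving out ties and clusters below that level. Other genes named with values (among them Nr4a3, Jund, Atf4, Dusp1, Nab2, Ddit3, Cebpd, Arntl, Ptprc, Srf, Elk1 and the cell type markers) were chosen after their values were seen. Alternatives were median centring, quantile normalization and cyclic loess, values below the receptor level raised to it, 32 added to linear values, the mean over clusters and thresholds of 1.5-fold and 3-fold. Scripts ran in R 4.3.3 (limma 3.58.1) and Python 3.11.15 (numpy 2.4.6, pandas 2.3.3, matplotlib 3.10.9). The calls were tried on simulated data with the receptor spread between the smoke arrays and planted shifts larger than most differences of the 10 genes. Bright clusters spread more against air, so that trial checks the code and does not gauge the calls of the 10 genes. Promoter sequences are from RefSeq.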

Additional observations from a re-analysis of the deposited data

How the results depend on the processing

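None of the 30 differences of the 10 genes changed direction under any of the 6 alternative treatments of the values, and the largest move was 0.11 on the log2 scale with quantile normalization. The floor at the receptor level and the mean over clusters could not move them, as each gene had 1 cluster and lay above that level. With 32 added to linear values, little beside such bright signals, the largest move was 0.0082. Differences that were exactly 0 became nonzero with the 3 scalings. The median of the 10 genes ranged from -0.32 to -0.27 for continuous CS minus air, from -0.64 to -0.56 for intermittent CS minus air and from -0.31 to -0.25 between the smoke arrays. At 1.5-fold in place of 2-fold, 2 members were lower with continuous CS than with air in place of 1, 5 with intermittent CS in place of 2, and 2 between the smoke arrays in place of 1. At 3-fold the counts were 0, 2 and 0. The shares of all clusters past 1.5-fold and 3-fold were not taken, so these counts cannot be set against a background. Of the counts of the related lists 6 moved, by 1 gene each, and 294 were equal to the main count or, where both were above 0, within 1.5-fold of it. Dusp10 and Sesn2 were under 2-fold for intermittent CS minus air with 32 added to each linear value. That addition also lowered the counts over all clusters, from 251 higher to 165 and from 105 lower to 70 for continuous CS minus air, from 159 lower to 105 for intermittent CS minus air, and from 26 higher and 141 lower to 7 and 80 between the smoke arrays. With values below the receptor level raised to it, 12 in place of 26 clusters were higher between the smoke arrays. The median of the clock genes for intermittent CS minus air was 0.59 in place of 0.95 with that floor and 0.58 with 32 added. No paired analysis was possible because each exposure has 1 array.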

Other observations

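NF-kappaB feedback genes, which inflammatory stimuli switch on with many immediate early genes, lay above air on the continuous CS array in 9 of 14 measured genes, with a median log2 difference of 0.13 and Tnfaip3 alone past 2-fold. With intermittent CS 5 were higher and 7 lower than with air, with a median of 0.00. Nfkbia, the inhibitor that NF-kappaB induces, was at 12.51 with air, 13.14 after continuous CS and 13.05 after intermittent CS, and Sod2 was at 12.71, 13.30 and 13.51. Bcl3, a coactivator of NF-kappaB, was at 10.09, 9.76 and 9.10, the order of Fos and Atf3, and Tnip1, a partner of Tnfaip3, was 1.40-fold below continuous CS on the intermittent CS array. Between the smoke arrays the median was -0.05, with none of the 14 genes 2-fold apart.

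Among the glucocorticoid-induced genes, Zbtb16 was at 8.14 with air and at 10.27 and 10.40 with continuous and intermittent CS, and the metallothionein gene Mt2 was at 9.66, 11.21 and 10.82. Angptl4, of lipid metabolism, was 1.62-fold and 2.71-fold above air. Dusp1, which glucocorticoids as well as immediate early stimuli induce, lay below air on both smoke arrays, and was one of 2 genes of that list lower than with air, with Ddit4.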
